A study of Mus musculus with 31 samples.

Results

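The comparison set liver of Ames dwarf mice at 22 months against liver of Ames dwarf mice at 10 months, across all genes on the array. Its members were chosen by the genotype and age in the sample titles: 5 arrays of 22-month dwarf liver and 5 arrays of 10-month dwarf liver, 10 of the 31 arrays in the series. The other arrays were 5 of dwarf liver at 4 months and 5, 5 and 6 of wild-type liver at 4, 10 and 22 months. Ames dwarfs carry a mutation in Prop-1, and the wild-type mice were their controls; the labels name no other allele, treatment or diet. Each array held RNA from 1 snap-frozen liver sample, and the labels give neither the sex nor the pairing of the animals. Unless stated otherwise, p-values rest on the spread between samples within groups, pooled over all 31 arrays and not taken from the 10 dwarf arrays alone.

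Prop-1 is a pituitary transcription factor without which the cells that make growth hormone, prolactin and thyroid-stimulating hormone do not form, so Ames dwarfs are small and lack these hormones, and they live long. In liver, growth hormone acts through its receptor, the kinase JAK2 and the factor STAT5B to drive transcription of Igf1 and of Igfals, the subunit that holds circulating IGF-1 in a stable complex. The same hormone, through the rhythm of its release, sets much of the difference in gene expression between male and female mouse liver, including the major urinary proteins.

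Signal is the deposited array intensity per probe set, scaled to the same trimmed mean on all arrays, and a gene is represented by its probe set of highest mean signal. Differences are log2(signal + 16) at 22 minus 10 months with the standard error of the fit, so 1 on this scale is a 2-fold change and the added 16 understates the change of dim genes. The 10 arrays had median signals between 179.5 and 210.2, and any pair of them correlated between 0.907 and 0.931. Defining hepatocyte markers lay at or above the 97.6th percentile of signal. On the Xist probe set that separates the arrays, 10-month replicates 1 and 4 and 22-month replicate 1 read 5582, 7336 and 8414, as did 1 wild-type array at 22 months (8167), against 6.87 to 132 on the other 27. Eif2s3y, from the Y chromosome, read 44.3 on 10-month replicate 4 and 21.6 on 22-month replicate 1, but 708 on 10-month replicate 1, which therefore carried both transcripts. The other 27 arrays had Eif2s3y between 588 and 1264. Values without those 4 arrays are given for most of the genes called and for some of the lists. In that fit 3.87% of all genes had an unadjusted p under 0.05 in either direction taken alone.

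At 22 months dwarf liver had more transcript of Igf1 and Igfals and of several genes that are bright in wild-type liver and dim in younger dwarfs, such as Wfdc21 and Mup10. Of 15421 genes tested, 11 rose (0.0713%) and 1 fell (0.00648%) at an adjusted p under 0.05 (limma with Benjamini-Hochberg adjustment). The risers, in order of size, were Wfdc21, Mup10, Csrp3, Igfals, Igf1, Esr1, Acnat2, Ctsc, Qars, Ifih1 and Cadps2, and the gene that fell was Api5. At an unadjusted p under 0.05, 553 genes were at a higher level (3.59%) and 664 at a lower level (4.31%), and the median difference over all genes was -0.01. All 5 older arrays lay above all 5 younger ones for 95 genes (0.616%) and below them for 157 (1.02%). Wfdc21, Mup10, Csrp3, Igfals, Igf1 and Ctsc passed with each of the 10 arrays left out in turn. The other 6 did not pass without 10-month replicate 2, 22-month replicate 3 or 22-month replicate 4, and the total ran from 6 genes without any of these to 34 without 22-month replicate 1. When the spread was estimated from the 10 arrays alone, no gene passed in limma, with 1197 at an unadjusted p under 0.05. Mup10 and Csrp3 were not in that fit, because their probe sets did not pass the signal filter on those 10 arrays. They entered the main fit with the help of arrays outside the comparison, among them the wild-type arrays. For these 2 genes a high wild-type signal is thus part of how they came to be tested and not a separate result.

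Within the growth hormone and IGF axis, Igf1 and Igfals rose. Igfals, the acid-labile subunit, read 257, 282, 354, 375 and 234 in 10-month dwarfs and 645, 1049, 2252, 670 and 1893 in 22-month dwarfs. Every older array lay above every younger one, with 22-month replicates 3 and 5 highest. The mean went from 300.3 ± 61.2 to 1302 ± 733 (SD, n = 5 each), a rise of 1.89 (SE 0.24, adjusted p = 6.48e-05). Dwarf liver at 4 months stood at 316 ± 85.8, close to the 10-month level, and wild-type liver at 2883 ± 453 at 10 months and 2779 ± 403 at 22 months. Igfals in dwarfs was thus 10.4% of the wild-type mean at 10 months and 46.8% at 22 months.

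Igf1 itself, the growth factor, read 1283, 868, 3586, 1746 and 1583 in younger and 3049, 4293, 10820, 3251 and 7468 in older dwarfs. The groups overlapped through 10-month replicate 3, which lay above 22-month replicates 1 and 4. Igf1 rose by 1.65 (SE 0.27, adjusted p = 0.00284), from 1813 ± 1046 to 5776 ± 3328, and the other 3 probe sets of the gene gave 1.39, 1.91 and 1.53. Wild-type liver held 13450 ± 948 at 10 months and 15060 ± 2559 at 22 months, so the dwarf mean went from 13.5% to 38.4% of it. Without the arrays of high Xist the rises were 2.14 for Igfals (adjusted p = 0.000205) and 1.76 for Igf1 (adjusted p = 0.0136). Fitted on the 10 arrays alone the adjusted p-values were 0.0921 for Igfals and 0.19 for Igf1.

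The remaining 17 of the 19 axis genes tested did not pass, and the list's median was -0.15, or -0.08 after quantile normalization. Ghr, the growth hormone receptor, stood at 12780 ± 569 in younger and 11990 ± 1558 in older dwarfs, a difference of -0.10. The signalling genes Jak2 (-0.17), Stat5a (-0.33) and Stat5b (-0.15) and the STAT5 targets Socs2 (-0.29) and Cish (0.16) had differences of either sign. Among the binding proteins, Igfbp3 differed by -0.09 and Igfbp2 by -0.15. Igfbp1, a binding protein that rises with fasting, read 35160, 54073, 16231, 23127 and 6786 in younger and 28049, 6601, 2562, 10695 and 4038 in older dwarfs. Its groups overlapped, with a difference of -1.57 (unadjusted p = 0.0356, adjusted p = 0.594), and the wild-type difference was 1.44. Igfbp4 differed by -0.26 (unadjusted p = 0.02), and by -0.03 after quantile normalization.

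The promoter of Igfals is shown because this gene rose on every array and STAT5 proteins are known to bind the motif TTCNNNGAA. The sequence is RefSeq's, build GRCm38.p6, chr17:24877981-24878280 on the plus strand, from 250 bases before to 50 after 1 annotated start of the gene. The capitals mark the motif, which reads the same on both strands.
Igfals: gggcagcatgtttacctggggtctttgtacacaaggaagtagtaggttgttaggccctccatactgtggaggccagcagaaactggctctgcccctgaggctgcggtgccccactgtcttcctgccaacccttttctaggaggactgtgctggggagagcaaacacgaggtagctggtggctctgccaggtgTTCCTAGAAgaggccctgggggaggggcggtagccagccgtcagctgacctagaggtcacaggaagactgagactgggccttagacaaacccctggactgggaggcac
The match lies 58 to 50 bases before this start, and a second annotated start of Igfals has TTCTCAGAA 236 to 228 bases before it. The motif occurs in 8.3% of all 32851 promoters of the table. Counted by gene, over any annotated start, it occurs in 8.53% of the genes tested that have a sequence there. It is in 3 of the 10 risers with a sequence (Igfals, Ctsc and Esr1), and Wfdc21 has no entry. A match in this window is a description of its letters.

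**Figure D1:**
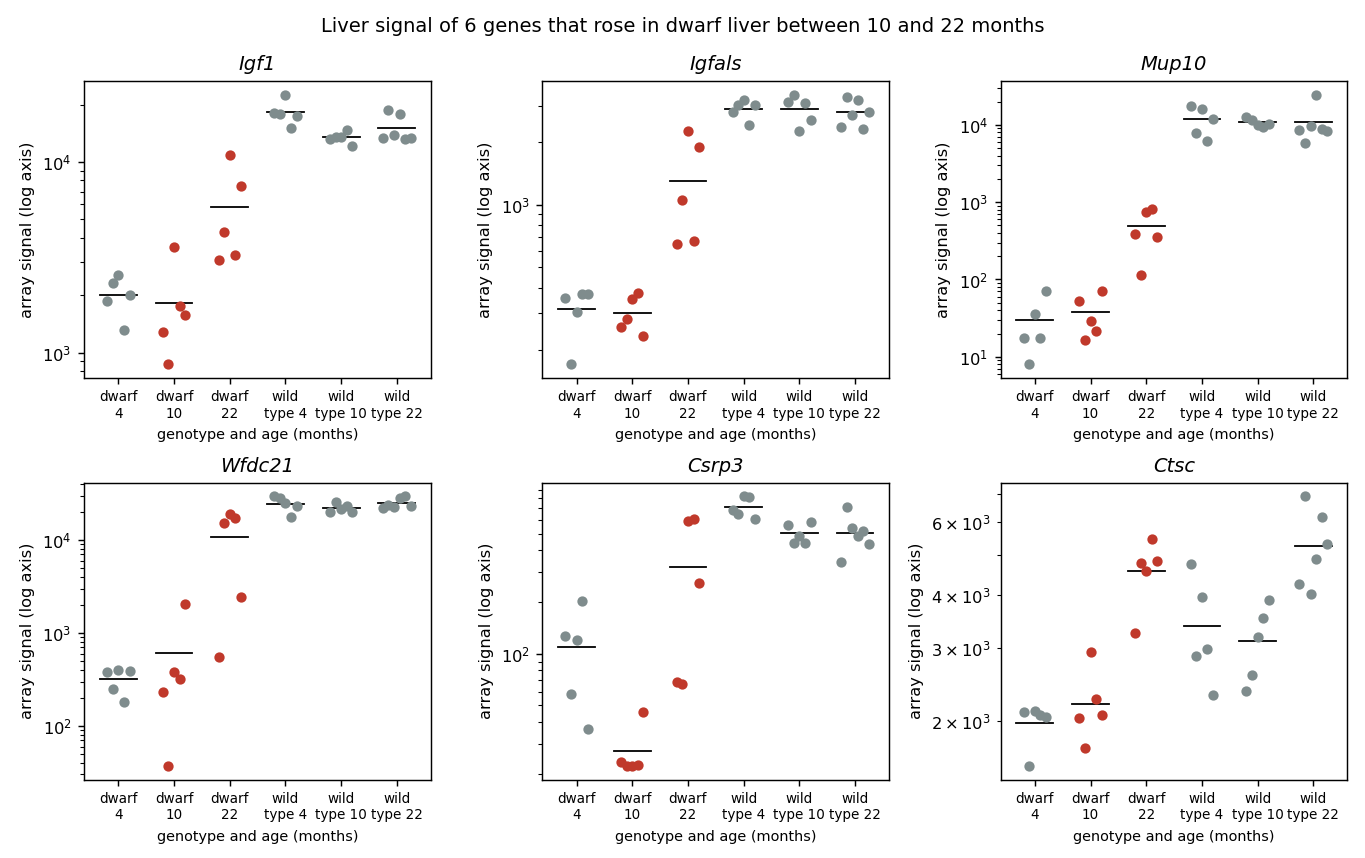
Array signal (log axis) of Igf1, Igfals, Mup10, Wfdc21, Csrp3 and Ctsc in all 31 arrays by genotype and age, with each group's mean as a line and the compared dwarf groups in red. The 5 dwarf arrays at 22 months lie above all 5 at 10 months for Igfals, Mup10, Csrp3 and Ctsc, and overlap with them for Igf1 and Wfdc21.

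Mup10, a major urinary protein made in male liver, was the male-biased liver gene that rose. It read 53.1, 16.4, 28.7, 21.3 and 70.7 in younger and 382, 116, 753, 816 and 357 in older dwarfs. The groups did not overlap, and the mean went from 38.0 ± 23.1 to 485 ± 294 (SD, n = 5 each). The rise was 3.05 (SE 0.40, adjusted p = 6.48e-05), or 3.55 with 1 and 2.25 with 64 added before the logarithm, since the younger arrays were dim. Wild-type liver stood at 10750 ± 1273 at 10 months, so Mup10 in dwarfs went from 0.354% to 4.43% of the wild-type mean. Without the arrays of high Xist the rise was 3.07 (adjusted p = 0.00385). Mup genes are near-identical in sequence, and the probe sets may share signal among them.

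Of the 19 male-biased genes tested, 6 had an unadjusted p under 0.05 and a higher level, against 3.59% of all genes, and none a lower one. The list's median was 0.10, and the count of 6 was 3 without 22-month replicate 3. All older arrays lay above all younger ones for 1 of the 19 (0.616% of all genes) and below them for 2 (1.02%). With the arrays of high Xist left out, 7 were higher and 3 were lower, against 3.87% of all genes in each direction, with a median of 0.32. C8a, a chain of complement component 8, read 987, 2553, 1927, 1801 and 1057 against 1989, 4904, 11016, 7018 and 5075. Only 22-month replicate 1 lay within the younger range of C8a, and the difference was 1.73 (adjusted p = 0.0727). Nudt7, a peroxisomal coenzyme A hydrolase, had 4244 ± 1177 against 7122 ± 2736 and a difference of 0.67. The same held for Keg1 (0.83), Mup3 (0.57) and Mup5 (0.79), none of which passed the adjusted threshold. For Keg1 the highest older arrays were 22-month replicates 3 and 5, at 2927 and 3108, while the other 3 lay between 742 and 844.

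Other male-biased genes did not pass the test and remained far below wild-type liver or read lower. Hsd3b5, a steroid reductase, had a mean of 13.5 at 10 and 15.1 at 22 months in dwarfs against 7477 in 10-month wild types. Elovl3, a fatty acid elongase, had 322 and 315 against 9655. Cyp4a12a differed by -0.70, Slco1a1 by -0.69 and Cyp2d9 by -0.64, the last with all older arrays below all younger ones. Of 20 female-biased genes tested, 1 had an unadjusted p under 0.05 at a higher level (Prom1, 1.40) and 1 at a lower level (Vldlr, -0.61), near the 3.59% and 4.31% of all genes. All older arrays lay below all younger ones for 3 of these 20 (1.02% of all genes) and above them for 1 (0.616%). The summed signal of the 20 was 90400 to 101600 in younger and 61240 to 90960 in older dwarfs. In the fit without high-Xist arrays 3 were higher and none was lower, against 3.87% of all genes in each direction. The female-biased enzymes that are bright in dwarf liver did not pass: the means of Sult2a2 were 28180 and 20800, of Cyp2b9 13990 and 10630, and of Cyp2b13 18240 and 16010, at 10 and 22 months.

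Wfdc21, which encodes a small secreted protein with a whey acidic protein domain, had the largest difference of the 12 genes called. It read 230, 37.0, 380, 318 and 2043 in younger and 549, 15301, 18907, 17360 and 2438 in older dwarfs. Older replicates 2, 3 and 4 stood far above replicates 1 and 5, and all 5 lay below the wild-type arrays of 10 months (19796 to 25538) and of 22 months (22326 to 29601). Wfdc21 rose by 4.18 (SE 0.67, adjusted p = 0.00234) with overlapping groups, and by 4.91 without the arrays of high Xist (adjusted p = 0.000321). Fitted on the 10 arrays alone its adjusted p was 0.224.

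Csrp3, a LIM protein best known from striated muscle, read 23.5, 22.2, 22.3, 22.4 and 45.9 in younger and 68.6, 66.4, 590, 606 and 259 in older dwarfs. The groups did not overlap, and the younger values lay near the 10th percentile of each array, which ran from 20.1 to 24.4. Csrp3 rose by 2.47 (SE 0.41, adjusted p = 0.00284), from 27.3 ± 10.4 to 318 ± 267, with 1.73 when 64 was added in place of 16. In 4-month dwarfs its mean was 109 ± 65.3, above the 10-month mean, and wild-type liver stood at 502 and 504 at 10 and 22 months. None of the 8 skeletal muscle markers tested had an unadjusted p under 0.05 in either direction, and their summed signal was 1446 to 2018 in younger and 1483 to 1918 in older dwarfs.

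Ctsc, the lysosomal protease cathepsin C, rose by 1.05 (SE 0.18, adjusted p = 0.00284). It read 2042, 1731, 2922, 2264 and 2071 against 3247, 4775, 4563, 5441 and 4835, without overlap. In wild types Ctsc had 3113 ± 636 at 10 and 5252 ± 1107 at 22 months, a difference of 0.75, and the interaction with genotype was 0.30 (adjusted p = 0.803). The other 2 probe sets of Ctsc gave 0.55 and 0.03, and its adjusted p did not pass when a gene's probe sets were averaged. Without the arrays of high Xist the rise was 1.16 (adjusted p = 0.00877).

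The other 5 risers had smaller changes or calls that depended on single arrays. Esr1, the oestrogen receptor alpha, read 245, 295, 716, 444 and 491 against 636, 1324, 1878, 1502 and 1269 and rose by 1.57 (SE 0.32, adjusted p = 0.0355), with 22-month replicate 1 inside the younger range. Acnat2, a peroxisomal acyltransferase that conjugates acyl groups to amino acids, read 360, 548, 332, 494 and 553 against 783, 1421, 1856, 2058 and 521, a rise of 1.36 (SE 0.28, adjusted p = 0.0355) with 22-month replicate 5 among the younger values. Cadps2, which primes dense-core vesicles for release, read 354, 315, 373, 412 and 384 against 429, 735, 607, 553 and 694 and rose by 0.67 (SE 0.14, adjusted p = 0.0435). The groups of Cadps2 did not overlap. Qars, a glutaminyl-tRNA synthetase, rose by 0.72 (SE 0.14, adjusted p = 0.0227) on the probe set used, while its other probe sets gave 0.05, 0.95 and -0.17. Without the arrays of high Xist, Cadps2 differed by 0.83 (adjusted p = 0.0286), Esr1 by 1.62 (0.0662), Acnat2 by 1.45 (0.0783) and Qars by 0.66 (0.137), the values in parentheses being adjusted p-values.

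The next smallest p-values among genes at a higher level did not pass. They belonged to Cmah, which makes the sialic acid Neu5Gc (0.90, adjusted p = 0.0506), Hsd17b2, which inactivates oestradiol and testosterone (0.76, 0.0628), Mme, the peptidase neprilysin (1.11, 0.0628), and Psmb9 (1.04, 0.0628). All 5 older arrays lay above the younger ones for Mme, which read 461, 202, 699, 597 and 666 against 1379, 875, 847, 965 and 1340.

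Interferon-responsive genes were mostly at a higher level in the older dwarfs, by amounts that differed between animals. Of 32 tested, 16 had an unadjusted p under 0.05 and a higher level (50%, against 3.59% of all genes), none had a lower one, and 29 differences were above 0. None passed the adjusted threshold. The list's median was 0.43, also 0.43 after quantile normalization, and 0.51 without the arrays of high Xist, where 15 were higher (against 3.87% of all genes) and 1 was lower (against 3.87%). With single arrays left out, the count of higher genes ran from 13 to 18 and the median from 0.36 to 0.51. In bulk liver RNA, more transcript per cell and more cells of a kind that makes it cannot be told apart.

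The sensor Ifih1 (MDA5), which detects viral double-stranded RNA and was not on that list, was the antiviral gene that passed. It read 988, 899, 1013, 914 and 845 against 1196, 1082, 2218, 1667 and 1667, without overlap, and rose by 0.69 (SE 0.14, adjusted p = 0.0445), or 0.80 without the arrays of high Xist (adjusted p = 0.0662). Ifit1, an antiviral protein that binds foreign RNA ends, read 216, 200, 196, 177 and 176 against 213, 259, 1167, 614 and 619, a difference of 1.25 (adjusted p = 0.207). Its older arrays fell into replicates 1 and 2 near the younger level and replicates 3, 4 and 5 above it. Gbp3, an interferon-induced GTPase, read 99.9, 60.6, 63.6, 47.3 and 132 against 132, 194, 443, 201 and 222, a difference of 1.36 (adjusted p = 0.141).

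Within the same list, Psmb8, Iigp1 and Tap1 had groups without overlap. Psmb8, a catalytic subunit of the immunoproteasome, read 90.6, 394, 366, 157 and 319 against 414, 459, 621, 525 and 642, without overlap (1.12, adjusted p = 0.11). Psmb9, the subunit encoded beside it, read 256, 311, 148, 223 and 216 against 362, 279, 878, 551 and 506, with overlap through 22-month replicate 2. The immunity-related GTPase Iigp1 read 6495, 6219, 7387, 6770 and 4881 against 7549, 8770, 17659, 13293 and 7981, without overlap (0.73, adjusted p = 0.0662). Tap1, the peptide transporter, was the third list member without overlap (0.40), and 0.616% of all genes had this order. The 22-month replicate 3 was the highest of the 10 arrays for 19 of the 32 genes, and without it 14 had an unadjusted p under 0.05 at a higher level. Members without such a difference included Stat2 (0.15), Mx1 (0.07), Usp18 (0.07), Cxcl10 (0.09), Oas2 (-0.52) and B2m (-0.20, and 0.02 after quantile normalization).

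**Figure D2:**
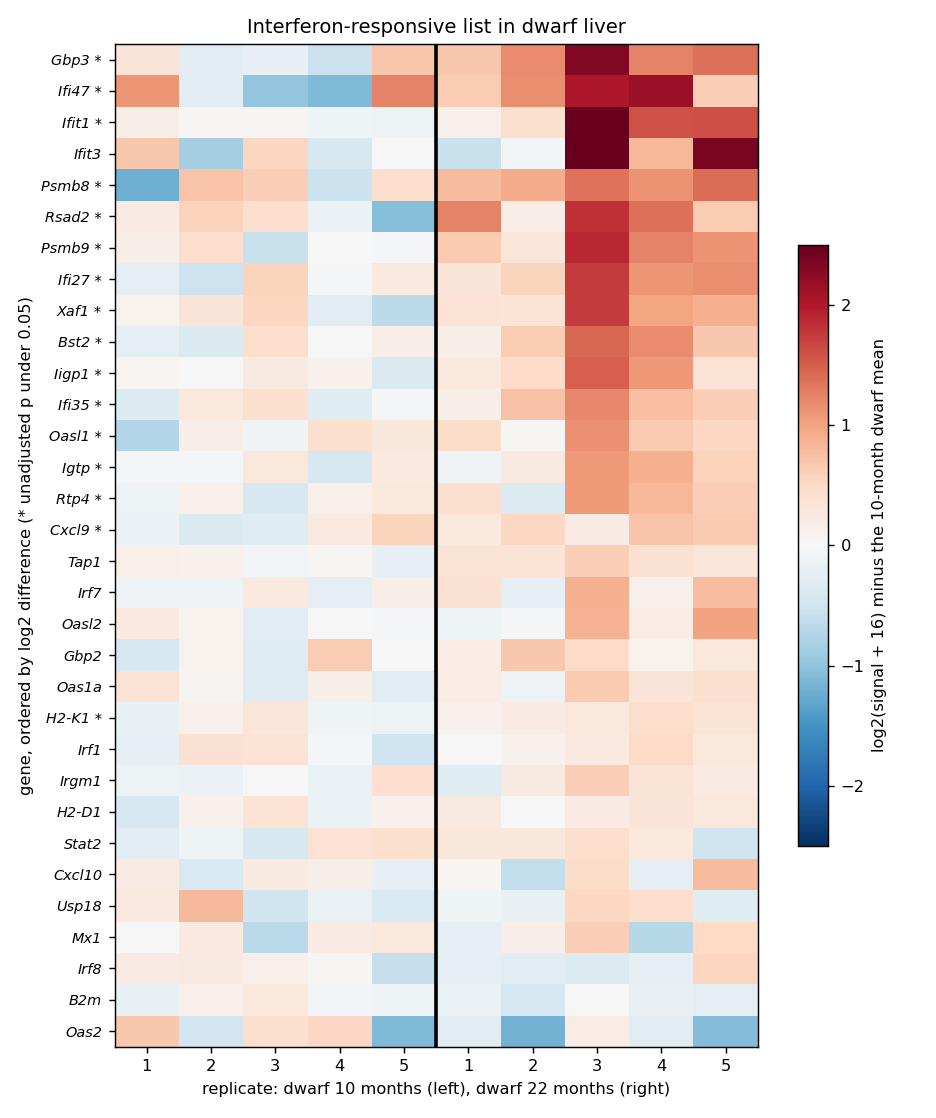
Each cell is log2(signal + 16) of 1 of 32 interferon-responsive genes on 1 of the 10 dwarf arrays minus the 10-month dwarf mean, with 10-month replicates left of the line and an asterisk for an unadjusted p under 0.05. The strongest red lies in 22-month replicate 3, followed by replicates 4 and 5, while replicates 1 and 2 stay nearer the younger arrays.

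The promoters of Ifih1, Ifit1 and Gbp3 are shown because their genes were at a higher level in the older dwarfs and hold the interferon element core, 2 copies of GAAA with any 2 bases between them, which interferon-activated factors are known to bind. They are RefSeq's, build GRCm38.p6: Ifih1 at chr2:62646206-62646505 on the minus strand, Ifit1 at chr19:34640639-34640938 and Gbp3 at chr3:142559794-142560093, both on the plus strand. Both strands were searched, and capitals mark the matches, which in Gbp3 overlap each other.
Ifih1: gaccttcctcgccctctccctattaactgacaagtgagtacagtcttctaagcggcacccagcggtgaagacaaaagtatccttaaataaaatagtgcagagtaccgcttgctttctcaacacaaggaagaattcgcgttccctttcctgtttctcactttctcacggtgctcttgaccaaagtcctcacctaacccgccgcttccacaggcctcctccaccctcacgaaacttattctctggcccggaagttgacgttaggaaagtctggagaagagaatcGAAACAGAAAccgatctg
Ifit1: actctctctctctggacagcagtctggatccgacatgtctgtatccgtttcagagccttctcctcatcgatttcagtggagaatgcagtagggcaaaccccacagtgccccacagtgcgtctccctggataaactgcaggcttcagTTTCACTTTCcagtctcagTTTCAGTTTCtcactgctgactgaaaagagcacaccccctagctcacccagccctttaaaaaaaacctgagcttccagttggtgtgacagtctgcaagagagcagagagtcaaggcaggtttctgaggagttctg
Gbp3: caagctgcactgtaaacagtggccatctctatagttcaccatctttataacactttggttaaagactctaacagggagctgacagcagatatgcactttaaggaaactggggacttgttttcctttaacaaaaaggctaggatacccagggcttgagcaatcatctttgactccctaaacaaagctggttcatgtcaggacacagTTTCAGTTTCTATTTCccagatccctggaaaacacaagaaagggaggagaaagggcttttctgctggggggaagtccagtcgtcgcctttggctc
The motif was in 3.44% of all promoters and, counted by gene, in 3.57% of the genes tested that have a sequence. Among the 10 risers with a sequence it was in 3 (Esr1, Ifih1 and Qars). On the interferon-responsive list it was in 12 of the 26 genes with a sequence (46.2%). Of the 13 with an unadjusted p under 0.05 at a higher level, 5 had it (38.5%: Bst2, Gbp3, Ifit1, Igtp and Rsad2). The motif was thus no more frequent among the list members at a higher level than over the whole list. Whether these letters are bound was not tested.

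Some markers of immune cells lay at a higher level in the older dwarfs, with none of those named here past the adjusted threshold. Of 27 Kupffer cell and macrophage markers, 5 had an unadjusted p under 0.05 at a higher level (3.59% of all genes) and none at a lower one (4.31%), with a median of 0.34. The 5 were Ctss (0.45), Lgals3 (0.93), Lyz1 (0.93), Lyz2 (0.57) and C1qb (0.46). With the high-Xist arrays left out, 7 were higher (3.87% of all genes) and the median was 0.50. Of 8 defining Kupffer genes, only C1qb reached an unadjusted p under 0.05. Clec4f (0.32), Vsig4 (0.17), Cd5l (0.46), Marco (0.87), C1qa (0.57), C1qc (0.40) and Csf1r (0.10) did not. The count among the 27 markers was 3 without 22-month replicate 3 or 10-month replicate 5, and 8 without 22-month replicate 1. The summed signal of 8 Kupffer markers ran from 9654 to 11660 in younger and from 8202 to 16140 in older dwarfs, so the groups overlapped. Their part in the difference of the interferon-responsive genes was not tested.

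B and plasma cell markers gave 4 of 13 at an unadjusted p under 0.05, all at a higher level, against 3.59% of all genes. Ighm, the immunoglobulin mu heavy chain, read 294, 368, 253, 144 and 661 against 421, 2243, 1138, 929 and 770, a difference of 1.59 (adjusted p = 0.11). Only 22-month replicate 1 lay within the younger range. The others were Cd22 (1.09), Ms4a1 (0.62) and Jchain (0.58), and the count was 2 without 22-month replicate 2 or 5 or 10-month replicate 2 or 3. The summed signal of 6 B cell markers ran from 1988 to 2638 in younger and from 2342 to 6345 in older dwarfs. In wild types the median of the list was 0.30 between the same ages. T and natural killer cell markers had 1 of 20 at a higher level, near the 3.59% of all genes, with summed signals of 4932 to 6287 in younger and 5779 to 6698 in older dwarfs.

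Api5, an inhibitor of apoptosis, was the gene that fell. It read 8136, 7628, 8736, 7276 and 8463 in younger and 5471, 6793, 4685, 5355 and 5286 in older dwarfs, without overlap. The fall was -0.55 (SE 0.11, adjusted p = 0.0342), or -0.59 without the arrays of high Xist (adjusted p = 0.0987). Its other probe sets gave 0.10, -0.17 and 0.32, and the adjusted p did not pass after quantile normalization. Genes with the next smallest p-values at a lower level did not pass. They included Ephx2, an epoxide hydrolase (-0.42, adjusted p = 0.073), the respiratory genes Cycs (-0.45, 0.11) and Atp5g3 (-0.36, 0.121), the cytokine Mif (-0.46, 0.114) and Rpp21, of ribonuclease P (-1.49, 0.114). Sod1, the cytosolic superoxide dismutase, read 17247, 19628, 21160, 14369 and 13759 against 8010, 10159, 12099, 7672 and 12340, without overlap (-0.78, adjusted p = 0.128). Cebpa, a transcription factor of hepatocyte differentiation, read 16108, 16270, 17036, 13388 and 17327 against 12337, 13854, 10067, 9203 and 12556 (-0.48, adjusted p = 0.188), with overlap through 1 array of each age. The rest were Steap1 (-1.62), Gtf3a (-0.52), Gpr182 (-0.55), Mon1a (-0.56), Tle5 (-0.45), Pcdhb14 (-2.00) and Lsm12 (-0.76).

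The brightest transcripts read lower on the older arrays. Among the 200 genes of highest mean signal the median difference was -0.20 and 89.5% lay below 0, and after quantile normalization this median was -0.01. The 99th percentile of signal was 11980 to 14440 on the younger and 11920 to 12740 on the older arrays. The differences of the bright hepatocyte lists are therefore given under both scalings. Whether the older livers held less of these transcripts or the arrays were less bright at the top of their range cannot be told apart.

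Hepatocyte markers had 11 of 19 at an unadjusted p under 0.05 and a lower level (against 4.31% of all genes) and none at a higher one, with a median of -0.29. After quantile normalization 2 were lower (against 3.99% of all genes), none was higher (against 3.8%), and the median was -0.02. Alb, the gene of serum albumin, read 55474, 55363, 66708, 50561 and 63623 against 42261, 44404, 47740, 44378 and 55854, with a difference of -0.31. Genes of the urea cycle and amino acid catabolism had 15 of 36 at a lower level (4.31% of all genes) and a median of -0.18. After quantile normalization 2 of them were lower (against 3.99% of all genes), 1 was higher (against 3.8%), and the median was -0.06. Cps1, the first enzyme of the urea cycle, read 47529, 51248, 57441, 45582 and 45020 against 37651, 37979, 37763, 35938 and 43184, without overlap (-0.36, and -0.06 after quantile normalization). Tat, tyrosine aminotransferase, kept most of its difference under both scalings (-0.46 and -0.31), and its groups did not overlap.

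Oxidative phosphorylation had 19 of 60 genes at an unadjusted p under 0.05 and a lower level (4.31% of all genes), none at a higher one, and a median of -0.18. After quantile normalization 10 were lower (3.99% of all genes) and the median was -0.10. All older arrays lay below all younger ones for 10 of the 60, against 1.02% of all genes. Cycs, cytochrome c, read 23172, 21829, 19372, 17936 and 19219 against 13483, 17806, 14166, 13883 and 15139, without overlap (-0.45, and -0.32 after quantile normalization). Ndufa10, a complex I subunit, read 6967, 8426, 8328, 7226 and 6623 against 5081, 5456, 5183, 5627 and 2692, without overlap (-0.68 and -0.66). The 10-month replicate 2 was the highest of the 10 arrays for 30 of these 60 genes, and without it 10 were lower. In wild types the same list had 12 of 60 at a lower level (against 7.18% of all genes) and a median of -0.14.

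Genes of PPAR alpha and fatty acid oxidation had 6 of 32 at a lower level, against 4.31% of all genes, with a median of -0.18. The count was 3 without 10-month or 22-month replicate 5, and 3 after quantile normalization (against 3.99% of all genes), where the median was -0.16. Among the 6 were Acaa1b (-0.50), Eci2 (-0.43), Ehhadh (-0.53) and Acot2 (-0.53), enzymes of peroxisomal and mitochondrial fat breakdown. Lipid droplet and uptake genes had 4 of 20 at a lower level (4.31% of all genes) and 1 at a higher one (3.59%; Apoa4, 0.76), with a median of -0.22. The lower count was 2 without 22-month replicate 5, and Apoa4 did not reach that level without 10-month replicate 1 or 22-month replicate 3. Pparg, the factor of fat storage, read 244, 336, 280, 183 and 347 against 63.1, 50.7, 34.7, 197 and 191, a difference of -1.47 (unadjusted p = 0.00288). Its overlap came from 10-month replicate 4 and 22-month replicates 4 and 5. Lpl, lipoprotein lipase, differed by -1.25, and Scd2, a desaturase, by -1.50. In cholesterol synthesis 19 of 20 differences were above 0, with 4 at an unadjusted p under 0.05, against 3.59% of all genes at a higher level: Sqle (0.66), Cyp51 (0.45), Mvk (0.55) and Stard4 (0.43). The median was 0.25, and the count ran from 3 to 9 with single arrays left out, the highest without 10-month replicate 3. It was 7 after quantile normalization (against 3.8% of all genes) and 2 without the arrays of high Xist (against 3.87%).

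**Figure D3:**
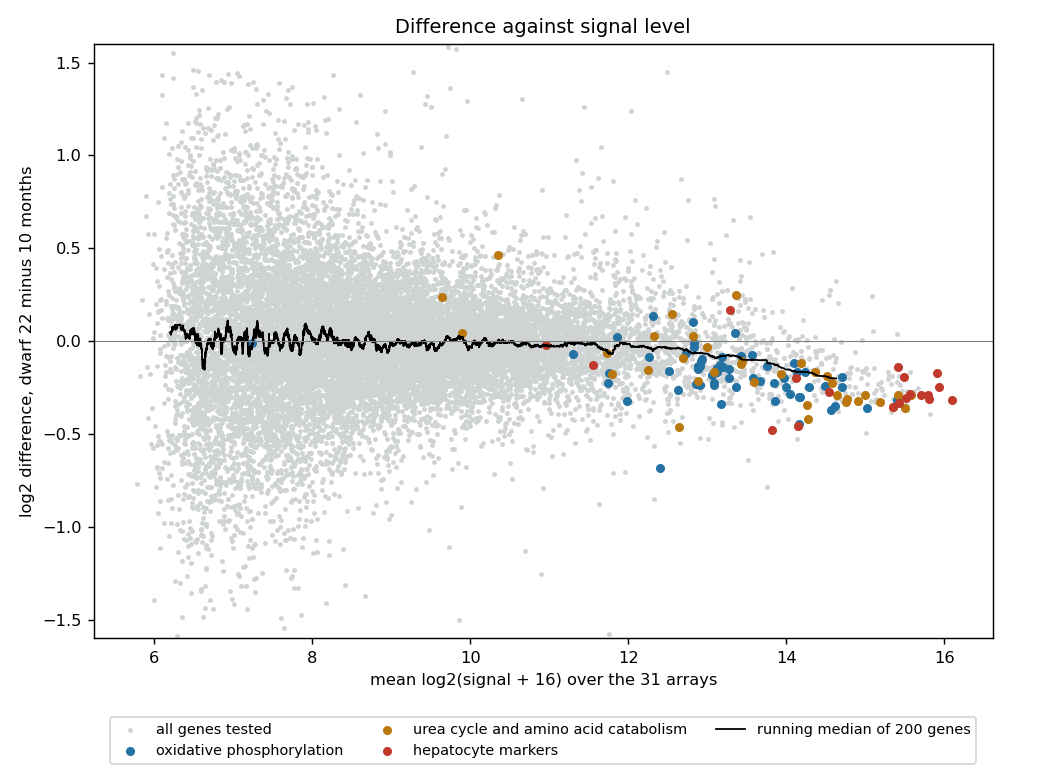
Log2 difference of 22 minus 10 months in dwarf liver against the mean log2(signal + 16) over the 31 arrays, with 3 gene lists in colour and a running median of 200 genes; 15 genes lie beyond the axis limits of 1.6. The running median leaves 0 at the brightest genes, where the hepatocyte markers and the urea cycle and amino acid genes sit.

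The age difference in wild types, from 6 and 5 arrays that share none with the dwarf comparison, is set beside the dwarf changes. Between 10 and 22 months 70 genes passed in wild types (0.454%), 22 higher and 48 lower. The test of the dwarf minus the wild-type difference called 5 genes (0.0324%), and Igfals and Mup10 were among them. For Igfals the wild-type difference was -0.05 and the interaction 1.94 (SE 0.33, adjusted p = 0.0117), and for Mup10 they were -0.13 and 3.18 (SE 0.55, adjusted p = 0.0117). The interaction did not pass for Wfdc21 (4.01, adjusted p = 0.106), Csrp3 (2.49, 0.106) or Igf1 (1.50, 0.165), so for these a difference between the genotypes was not shown. The wild-type differences were 0.17, -0.02 and 0.15.

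The other 3 genes of the interaction passed the test in wild types and not in dwarfs. Csad, an enzyme of taurine synthesis, had an interaction of 2.36 (adjusted p = 0.0117), made of 0.46 in dwarfs and -1.90 in wild types, whose mean went from 7699 ± 4501 to 1889 ± 597. In dwarfs Csad read 201, 277, 347, 296 and 373 against 519, 376, 425, 430 and 322, so the groups overlapped. Tbcel, a tubulin cofactor-like gene, had 1.10 (SE 0.21, adjusted p = 0.0354), made of 0.38 and -0.72. Adarb1, an RNA editing enzyme, had -2.32 (SE 0.45, adjusted p = 0.0354), made of -0.96 in dwarfs and 1.35 in wild types. Their other probe sets gave interactions of 0.52 and -1.14. Without the arrays of high Xist the interactions of Csad (1.95, adjusted p = 0.092) and Tbcel (adjusted p = 0.146) did not pass, and that of Adarb1 was -2.57 (adjusted p = 0.0482). With high Xist as a covariate Csad passed and Tbcel and Adarb1 did not. Spc24 (1.34, adjusted p = 0.0598), Gng4 (-2.87, 0.0598) and Taok3 (1.16, 0.0731) came next and did not pass. The other probe set of Gng4 gave an interaction of the opposite sign (2.10), and those of Taok3 gave -0.06, 0.27 and 1.08. The count of 5 ran from 3 to 21 with single arrays left out, the highest without wild-type 22-month replicate 2, and was 16 without the arrays of high Xist.

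**Figure D4:**
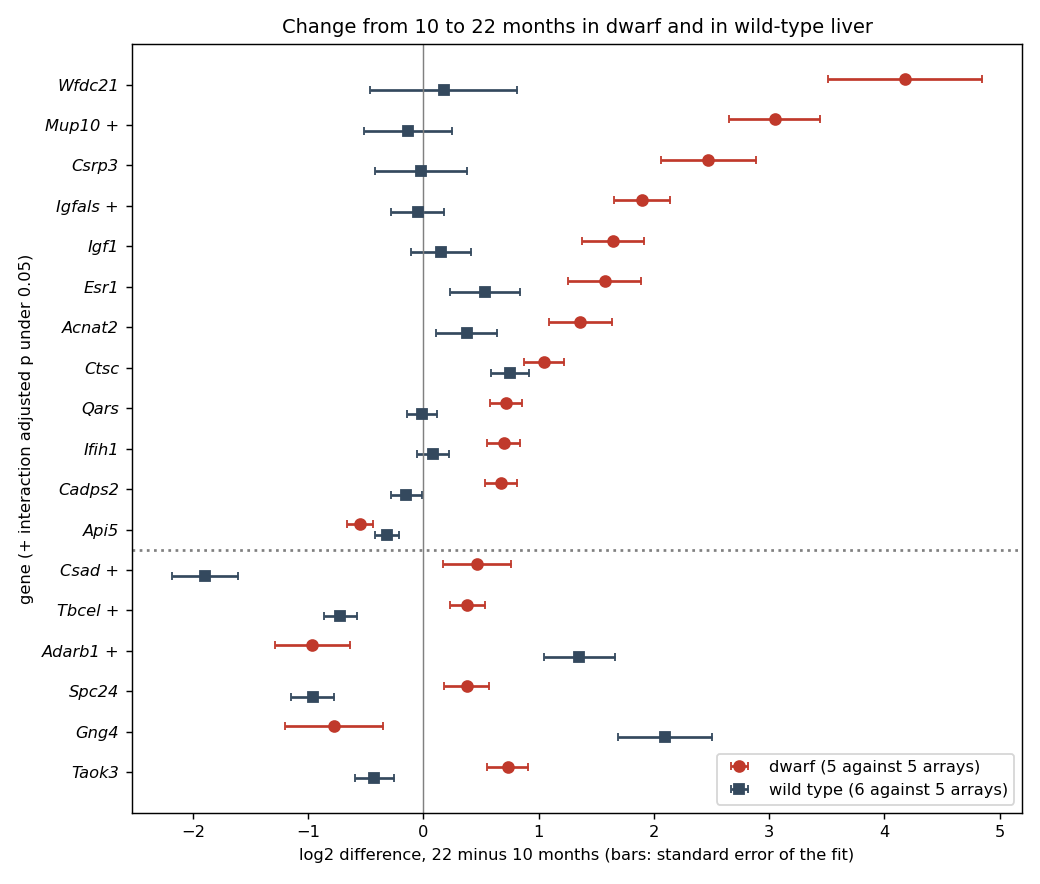
Log2 difference of 22 minus 10 months in dwarf (circles) and wild-type (squares) liver with the standard error of the fit, for the 12 genes called in dwarfs above the dotted line and 6 further genes of smallest interaction p below it. A plus marks an interaction with adjusted p under 0.05, as for Igfals and Mup10, whose wild-type values lie near 0.

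Beside these, the interferon-responsive list had a wild-type median of 0.09, with 4 of 32 at a higher level against 5.97% of all genes. The interaction adjusted p-values of its members lay between 0.12 and 0.99, so no member was shown to differ between genotypes. The male-biased list had a wild-type median of -0.27, with 5 of 19 at a lower level against 7.18% of all genes. Some lists moved in the same direction in wild types as in dwarfs. Kupffer and macrophage markers had 7 of 27 at a higher level (5.97% of all genes) and none at a lower one (median 0.27). Lipid droplet and uptake genes had 5 of 20 lower (7.18% of all genes) and 1 higher (5.97%), with a median of -0.28. Genes of PPAR alpha and fatty acid oxidation had 4 of 32 lower (7.18% of all genes) and 1 higher (5.97%), with a median of -0.22. Dwarf liver at 4 months gives a further level, though it shares the 10-month or the 22-month arrays with the comparison: the interferon-responsive median was -0.22 at 10 minus 4 months and 0.22 at 22 minus 4 months.

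**Figure D5:**
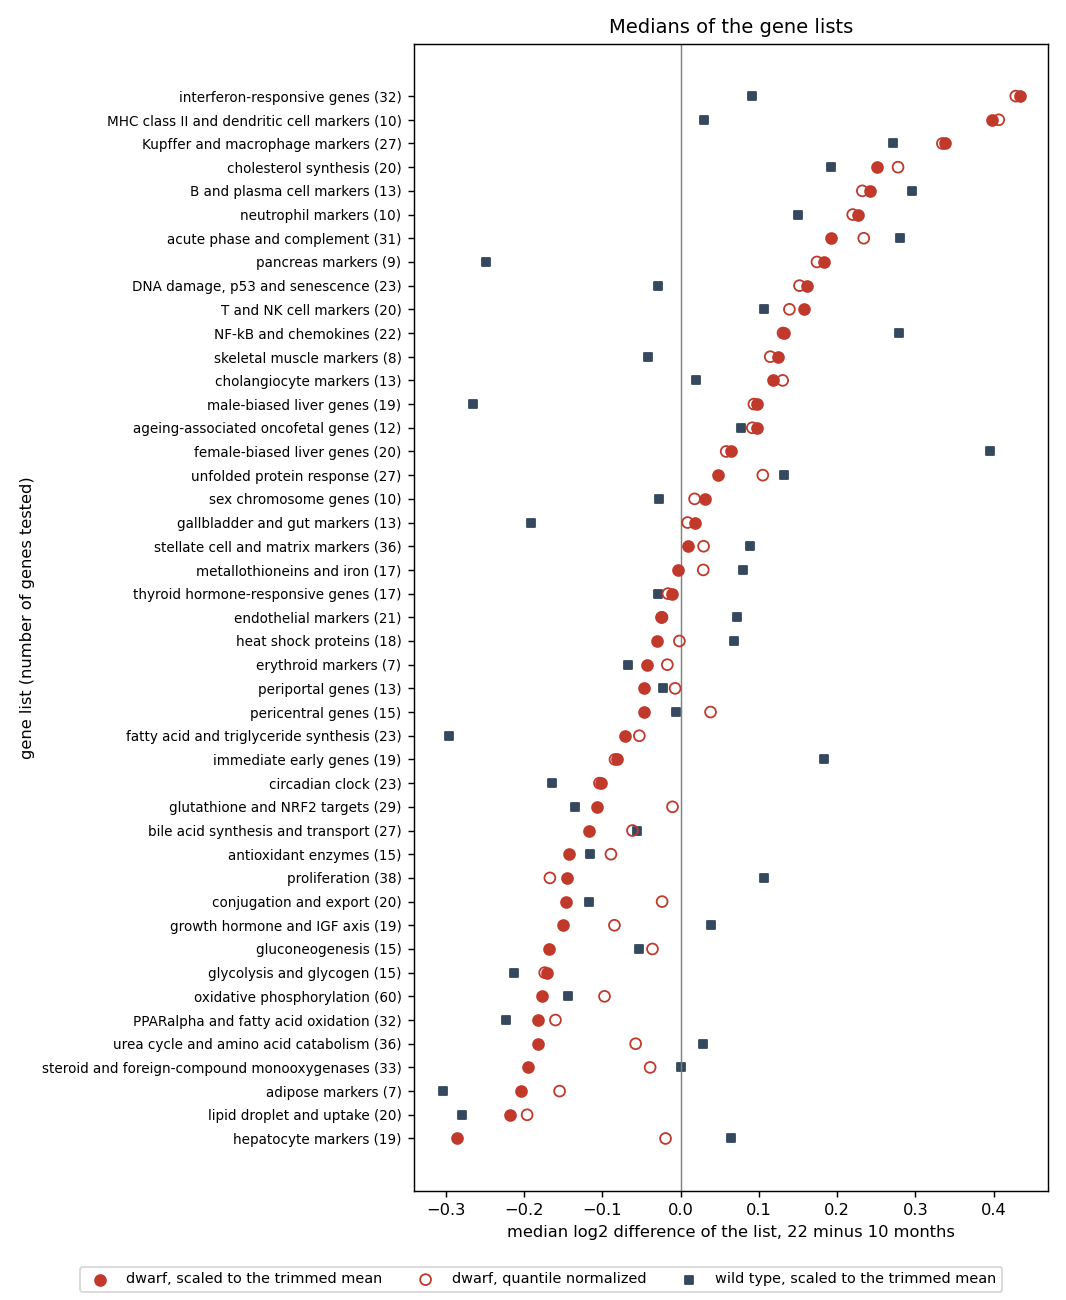
Median log2 difference, 22 minus 10 months, of 45 gene lists in dwarf liver under 2 scalings (filled and open circles) and in wild-type liver (squares), with the number of genes tested in parentheses. The interferon-responsive list lies at 0.43 under both scalings, and the hepatocyte markers move from -0.29 to -0.02 with quantile normalization.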

How the data were processed

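RNA of 31 liver samples in 6 groups was labelled with biotin and hybridised to arrays, per the labels' protocols. The deposited values are MAS5 signals, a linear intensity for each of 45037 probe sets, per the submitters' processing notes, which give no version; how the authors scaled them is not given in the sources used here. Arrays were scaled to a 2% trimmed mean of 500 (factors 1.008 to 1.011). Of the probe sets, 34945 had 1 gene symbol, 932 several and 9160 none, and the latter were not named. Probe sets above the 40th percentile of their array on at least 5 arrays entered, and the one of highest mean signal stood for each gene (15421). The log2(signal + 16) values of all 6 groups were fitted in limma 3.58.1 (R 4.3.3) with an intensity trend, 25 residual degrees of freedom, and Benjamini-Hochberg adjusted p-values called at 0.05. The number of arrays limits the precision.

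The genes named were the 15 largest rises and falls past the threshold, filled up to 15 by smallest p; the 8 smallest p of the interaction; and members of 45 gene lists, those past the threshold and those on whose role a list turns (1046 members, 930 with a named probe set, 877 tested). Individual list members and arrays singled out in the text for their values were chosen after those values were seen. The members and lists were chosen with earlier results of these data known. In data simulated for the dwarf comparison, changes of 0.5, 1, 2 and 4 log2 units were recovered in 22, 70, 96 and 100% of genes. There 50 genes were changed at each size and 152 were called, against 12 in the real comparison. Each gene had the same spread in every group. With fewer calls the adjusted threshold is stricter, so these shares may overstate the recovery in the real comparison. No 2 arrays held identical values. Alternatives covered scaling, the pseudocount, the filter, probe set choice, the fit and the arrays used. One label field names insect tissue; the title and source give mouse liver and were used.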

Additional observations from a re-analysis of the deposited data

Results flagged for a closer look

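The age differences of 5 genes differed between dwarf and wild-type liver by the interaction test: Igfals (1.94), Mup10 (3.18), Csad (2.36), Tbcel (1.10) and Adarb1 (-2.32).

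Among the named genes, 6 of 72 gene and age groups of dwarf arrays (8.33%) held 1 array far from the other 4 for its group's range, where chance alone gives about 1 in 20. At 10 months replicate 5 read 45.9 for Csrp3, with the others between 22.2 and 23.5, and 1155 for Lsm12, with the others between 787 and 847. At the same age replicate 4, 1 of the arrays of high Xist, read 16060 for Ephx2, with the others between 18290 and 19120, and 13390 for Cebpa, with the others between 16110 and 17330. At 22 months replicate 5 read 1333 for Tbcel, with the others between 1875 and 2123. In the same group replicate 4 read 51.7 for Adarb1, with the others between 186 and 225.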

How the results depend on the processing

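The dwarf comparison called 12 genes. The count was 6 with median centring, 20 with a filter at the 60th percentile, 23 when each probe set was tested, 7 without an intensity trend, and 0 in limma with only the compared groups (1197 at an unadjusted p under 0.05). It ran from 6 to 34 with single arrays left out, and stayed within 1.5 times 12 under the other alternatives. Quantile normalization called 15 genes, all higher, 11 of them shared with the 12; leaving out the arrays of high Xist called 14, of which 7 were shared. Igfals, Igf1 and Wfdc21 passed in 15 of 16 other settings. The interaction called 5 genes, but 3 with quantile normalization, 3 when each probe set was tested, 0 without an intensity trend in limma (1273 at an unadjusted p under 0.05), 17 with array weights and 16 without the arrays of high Xist, and from 3 to 21 with single arrays left out. One called gene turned sign: Qars was -0.17 with only the compared groups, where another of its probe sets was the brightest. No paired analysis was possible because the groups hold different animals, the labels pair none, and replicates are numbered in accession order. Dim genes such as Mup10 and Csrp3 at 10 months are limited by their signal over background. The labels give no sex.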

Other observations

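Among acute phase and complement genes, 7 of 31 had an unadjusted p under 0.05 at a higher level (3.59% of all genes) and 3 at a lower one (4.31%), with a median of 0.19. The higher count was 4 without 10-month replicate 2 or 22-month replicate 4 and 11 without 10-month replicate 3, and the lower count was 5 without 10-month replicate 1 or 22-month replicate 4 and 1 without 10-month replicate 3 or 22-month replicate 1 or 2. Saa3, a serum amyloid made by macrophages and other non-hepatocyte cells, read 324, 361, 390, 433 and 448 in younger and 649, 741, 710, 958 and 963 in older dwarfs, without overlap. The others at a higher level were C8a, Cd14 (1.30), Orm1 (0.48), Saa4 (0.67), Il1r1 (0.81) and Lcn2 (1.29). The 3 at a lower level were Fga (-0.34), Hpx (-0.27) and Fgg (-0.23), whose differences were -0.03, 0.03 and 0.04 after quantile normalization. In wild types 12 of the 31 were at a higher level (5.97% of all genes) and 1 at a lower one (7.18%), with a median of 0.28.

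The liver sinusoidal endothelial genes Gpr182 (-0.55) and Lyve1 (-0.61) had all older arrays below all younger ones, an order found in 1.02% of all genes, while the other 19 of 21 endothelial markers had no unadjusted p under 0.05. Lyve1, a hyaluronan receptor, read 551, 541, 511, 759 and 652 against 411, 475, 314, 351 and 391. Of 23 genes tested on the circadian clock list, 1 had an unadjusted p under 0.05 at a higher level (Fkbp5, 0.49) and 1 at a lower level. These counts lay near the 3.59% and 4.31% of all genes, and Fkbp5 is named here as a list member, not as a part of the clock. The lower one, Nr1d1, a repressor of the clock, read 927, 1156, 878, 623 and 767 against 803, 933, 248, 234 and 267 (-1.02), with 22-month replicates 3, 4 and 5 below the rest. The hours of collection were not given in the labels. Peg3, an imprinted gene, differed by -1.11 without overlap, and by 0.17 on the probe set used with only the compared groups. Erythroid, cholangiocyte and immediate early lists had no member at an unadjusted p under 0.05.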
